A study of Mus musculus with 7 samples.

Results

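Cck Cnr1 GABAergic nuclei were 121 of the 4132 GABAergic nuclei, and of 51115 nuclei in all, that were profiled from the posterolateral cortical amygdala (plCoA), an olfactory part of the mouse amygdala. They were chosen by their own counts of unique molecular identifiers (UMIs, each 1 captured transcript). A GABAergic nucleus had at least 3 UMIs of Gad1 and Gad2 together and at most 1 of Slc17a7 and Slc17a6 together, and a Cck Cnr1 nucleus had in addition at least 1 Cck UMI, at least 5 Cnr1 UMIs, at most 2 Sst UMIs and at most 1 UMI each of Vip, Pvalb and Lamp5. Single nuclei came from the anterior domain (aplCoA) and the posterior domain (pplCoA) of male C57BL6J mice aged 8 weeks, with 3 replicates in each domain, every replicate holding tissue pooled from several animals and sorted on the DNA dye DRAQ7. The groups differed by domain alone, and the counts of the 2 libraries made for aplCoA replicate 1 were added together. The domains were compared to learn whether the cell types of the plCoA follow its anterior to posterior axis. The 7 libraries held between 50812605 and 129624583 UMIs, and 315 of 50799 distinct barcodes of nuclei occurred in more than 1 library.

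Cholecystokinin, the product of Cck, is a neuropeptide, and Cnr1 encodes the cannabinoid receptor of neurons. In cortex and amygdala, interneurons that carry both are best known as basket cells, which contact the cell bodies of principal neurons, and endocannabinoids released by those neurons act on the receptor to lower GABA release for a short time. Such interneurons are held to arise in the caudal ganglionic eminence, a zone of the embryonic forebrain, whereas interneurons marked by Sst or Pvalb arise in the medial ganglionic eminence.

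The 10 genes named in the rule describe the nuclei and were not tested. A nucleus held a median of 2 Cck UMIs, between 1 and 19, and a median of 12 Cnr1 UMIs, between 5 and 61. Summed over the nuclei of a replicate and set against their total, Cck stood at 236 ± 99.8 CPM (summed UMIs scaled to 1e+06 UMIs; SD, n = 6 replicates) and Cnr1 at 1034 ± 235 CPM. Across replicates Cck was 223, 300.1 and 310 CPM in aplCoA and 141, 96.5 and 343 CPM in pplCoA, values that overlap. Gad2, a GABA-synthesising enzyme, was 300 ± 58.4 CPM (SD, n = 6) in these nuclei and 406 ± 31.7 CPM in the other 4011 GABAergic nuclei. By the GENCODE vM21 annotation of mm10, an earlier release than the one the counts were made on, Cck lies on chromosome 9 from 121489824 to 121495694 and Cnr1 on chromosome 4 from 33924593 to 33948831.

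A single Cck UMI is weak evidence of expression in such data, since free RNA also reaches other nuclei. At least 1 Cck UMI occurred in 12.5% of 3755 microglia (median depth 3305 UMIs), which should lack the gene, and in 23.6% of the other GABAergic nuclei (median 9006 UMIs), and 44 of the 121 Cck Cnr1 nuclei (median 12319 UMIs) held just 1. The Cnr1 threshold was met by 1 microglial nucleus, or 0.0266%, and by 6.46% of the other GABAergic nuclei. The 2 thresholds therefore differed in how far they lay above background. When 3 Cck UMIs were required, 55 nuclei were left.

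Nuclei on either side of the thresholds were alike in some genes and not in others. The 109 nuclei that had enough Cnr1 but no Cck UMI, and were otherwise within the rule, held Adarb2 in 99.1% and Npas1 in 56.0% of cases. They held no Slc17a8 UMI. The 18 nuclei with exactly 4 Cnr1 UMIs and some Cck held Npas1 in 33.3%, and the 11 Cck Cnr1 nuclei at exactly 5 Cnr1 UMIs held it in 9.09%. Another 74 nuclei met both the Cck and the Cnr1 threshold but had more than 1 Vip UMI, so that the limit on Vip set aside many nuclei of that kind. In those 74 nuclei Prox1 was found in 94.6% and Calb1 in 5.41%, against 29.8% and 48.8% of the Cck Cnr1 nuclei.

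The label was checked on genes that the rule did not read, and those of the caudal eminence were not alike. Adarb2, an RNA-editing family gene that marks interneurons of the caudal eminence, was found in all 121 nuclei, in 67.4% of the other GABAergic nuclei, in 99.0% of Vip nuclei and in 95.8% of Lamp5 nuclei, and was 15792, 19286 and 14318 CPM in the aplCoA replicates and 19794, 13630 and 25782 CPM in the pplCoA replicates. Lhx6, a transcription factor of medial-eminence interneurons, had no UMI in any of the 121 nuclei, which allows a share of nuclei with a UMI of up to 2.48%, where 17.7% of the other GABAergic nuclei, 47.0% of Sst nuclei, 4.33% of Lamp5 nuclei and 0.966% of Vip nuclei held one, and stood at 28.2 ± 2.77 CPM (SD, n = 6) in the other GABAergic nuclei. Npas1, a transcription factor of caudal-eminence interneurons, was found in 70.2% of Cck Cnr1 nuclei, in 8.00% of the other GABAergic nuclei and in 0.826% of microglia. With every nucleus thinned to 2000 UMIs, which left out 6 of the other GABAergic nuclei and 487 microglia, these shares were 24.0%, 2.67% and 0.459%. Prox1, of the same origin, was found in 29.8% of Cck Cnr1 nuclei and 30.0% of the other GABAergic nuclei. Sncg, which encodes gamma-synuclein and names such interneurons in cortical atlases, was found in 12 nuclei, or 9.92% (0.0266% of microglia), and was under the limit for testing.

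Cck Cnr1 nuclei were 4.25%, 3.83% and 2.18% of GABAergic nuclei in the aplCoA replicates and 2.82%, 1.00% and 1.34% in the pplCoA replicates. The numbers behind these shares were 60, 12 and 17 nuclei in aplCoA and 22, 4 and 6 in pplCoA. The means were 3.42 ± 1.09% (SD, n = 3) and 1.72 ± 0.964% (SD, n = 3), a difference of 1.70 percentage points. The ranges overlapped, and the difference was not significant (exact permutation test, two-sided, p = 0.2, where 0.1 is the smallest p that 3 replicates against 3 can give). Nuclei with at least 3 Cck UMIs were 1.90% and 0.585% of GABAergic nuclei on average, with no overlap (exact permutation test, p = 0.1). A rule on UMIs follows depth, and the median depth of the other GABAergic nuclei was 9106, 10950 and 8606 UMIs in aplCoA and 9945, 8131.5 and 7846.5 UMIs in pplCoA. When the rule was applied to nuclei thinned to 2000 UMIs, with the Cnr1 minimum lowered to 2, 7 of 900 GABAergic nuclei met it, of which 3 were among the 121, and the difference over these largely different nuclei was -0.496 percentage points.

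**Figure D1:**
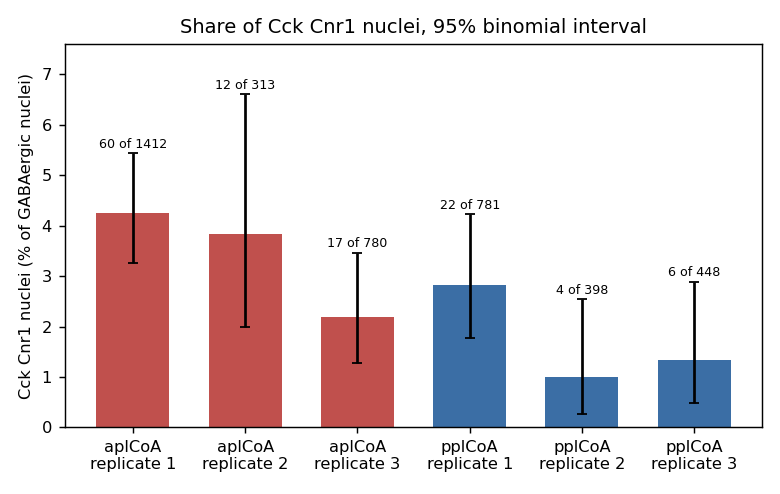
Cck Cnr1 nuclei as a percentage of GABAergic nuclei (vertical axis) in each of the 6 replicates, with 95% exact binomial intervals that cover counting error only. aplCoA replicate 3 (2.18%) lies below pplCoA replicate 1 (2.82%), so the domains overlap.

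Clustering of all GABAergic nuclei without the 10 genes of the rule gave 24 clusters, and the Cck Cnr1 nuclei did not form a single one. Cluster 18 held 56 of them, or 46.3%, and they were 62.9% of its 89 nuclei. Cluster 13 held 29, or 24.0%, beside 38 Vip nuclei among its 115, and cluster 6 held 11. The share of a replicate's Cck Cnr1 nuclei that lay in cluster 18 was 43.3%, 58.3% and 29.4% in aplCoA and 59.1%, 50% and 50% in pplCoA. For cluster 13 the shares were 20.0%, 33.3% and 58.8% in aplCoA and 4.55%, 25.0% and 16.7% in pplCoA. Both clusters were met in every replicate, and cluster 13 held more of aplCoA replicate 3 than of any other.

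The 2 clusters split the Cck Cnr1 nuclei by genes, which is a description, since the clusters were made from those genes. Syt6, a member of the synaptotagmin family of vesicle proteins, was 422 CPM in the 56 nuclei of cluster 18 and 43.3 CPM in the 29 of cluster 13. Calb1, the calcium buffer calbindin, was 308 and 26.7 CPM. Slc17a8, a vesicular glutamate transporter found in some cholecystokinin basket cells, was 59.9 CPM in cluster 18 and had no UMI in the 29 nuclei. The opposite held for Prox1, a transcription factor of caudal-eminence interneurons, at 1.25 and 300.0 CPM, for the chemokine gene Cxcl14 at 44.9 and 237 CPM, for the tachykinin gene Tac2 at 27.4 and 167 CPM, and for the ionotropic serotonin receptor subunit Htr3a at 23.7 and 93.3 CPM. Adarb2, Npas1 and Cadps2 were found in at least 58.6% of the nuclei of both. Median depth was 13958 UMIs in cluster 18 and 9988 in cluster 13.

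**Figure D2:**
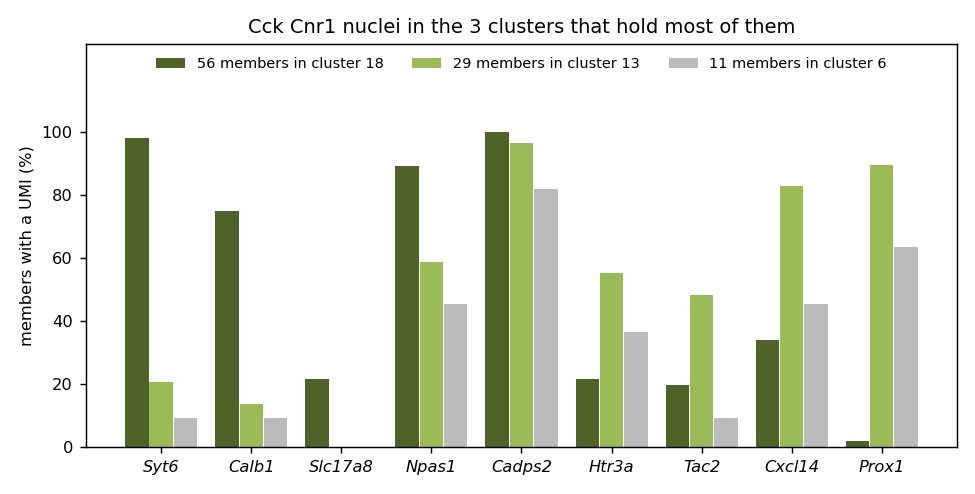
Percentage of Cck Cnr1 nuclei with at least 1 UMI of each gene (vertical axis), for the 56 nuclei in cluster 18, the 29 in cluster 13 and the 11 in cluster 6. Syt6, Calb1 and Slc17a8 are tallest in cluster 18, and Prox1 and Cxcl14 in cluster 13.

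Among pairs of these genes, some were seldom found in 1 nucleus and others often. Slc17a8 was found in 14 nuclei and Htr3a in 36, and none held both. None of the 14 held Prox1, which was also found in 36 nuclei. Calb1 and Prox1 occurred together in 6 nuclei, while 53 held Calb1 alone and 30 held Prox1 alone. Slc17a8 and Calb1, both higher in the same cluster, occurred together in 2 nuclei, while 12 held Slc17a8 alone and 57 held Calb1 alone. Htr3a was found with Calb1 in 18 of its 36 nuclei and Cxcl14 with Calb1 in 27 of its 59, so these pairs did not divide the nuclei. Free RNA bears on such counts, since 9.80% of microglia held Prox1 and 5.65% held Calb1. Calb1 and Npas1 were found together in 53 nuclei, with 6 that held Calb1 without Npas1. Among nuclei with 10 or more Cnr1 UMIs, all 14 Slc17a8 nuclei were found, and the 53 with 5 to 9 Cnr1 UMIs had none, at median depths of 14044 and 10331 UMIs.

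Against the other GABAergic nuclei as a whole, Syt6, Cadps2 and Npas1 were higher in the Cck Cnr1 nuclei, and Lhx6, Nxph2, Crhbp, Sox5os4 and Moxd1 were nearly absent. Low levels of the last 5 were not particular to them, since Vip nuclei averaged 1.45 CPM of Nxph2, 1.30 CPM of Crhbp, 3.70 CPM of Moxd1 and 9.52 CPM of Sox5os4 and held Lhx6 in 0.966%. Of 9819 genes tested, 451 (4.59%) were higher and 650 (6.62%) lower, with an adjusted p under 0.05 (edgeR quasi-likelihood, Benjamini-Hochberg over all genes tested) and a change of at least 1.5-fold. A gene was tested where at least 10% of the nuclei of either set held a UMI, and 102 of the rises and 149 of the falls met that limit only in the set where they were higher, so that they had to differ to be tested. Counts and medians of the lists below describe the genes tested and support nothing about a list. The shares called are the background for every list, and the median log2 fold change over all genes was -0.02. The other GABAergic nuclei include the Vip, Lamp5 and Sst nuclei, which were selected on the genes they are named for, so the contrast also carries what those sets share.

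Syt6 was 242, 269 and 191 CPM in the aplCoA replicates and 410, 217 and 435 CPM in the pplCoA replicates, while the other GABAergic nuclei lay between 7.96 and 20.3 CPM (log2 fold change 4.41 ± 0.17 SE, adjusted p = 1.57e-28). Cadps2, which encodes a protein for the release of dense-core vesicles, was 1866, 2174 and 1966 CPM in aplCoA and 1995, 1303 and 1992 CPM in pplCoA, against 120 to 220.2 CPM (log2 fold change 3.47 ± 0.16 SE, adjusted p = 3.24e-24). Npas1 was 138, 141 and 140 CPM in aplCoA and 144, 121 and 185 CPM in pplCoA, against 8.27 to 16.9 CPM (log2 fold change 3.55 ± 0.20 SE, adjusted p = 2.72e-21). Syt6 and Npas1 met the limit of 10% in the Cck Cnr1 nuclei alone, at 61.2% and 70.2% against 7.16% and 8.00%. In none of the 3 genes did any replicate of the Cck Cnr1 nuclei overlap the other GABAergic nuclei. Syt6 lies on chromosome 3 from 103575231 to 103645569 and Npas1 on chromosome 7 from 16455721 to 16477728.

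Of the other genes with the largest rises, Trpm3, a cation channel, was 2729 ± 782 CPM (SD, n = 6) against 388 ± 55.2 CPM, and Rgs12, a regulator of G protein signalling, was 352 ± 78.4 against 56.7 ± 8.57 CPM. Their log2 fold changes were 2.77 ± 0.16 and 2.72 ± 0.15 (SE). Frem1, an extracellular matrix protein, was 250.4 ± 106 against 29.3 ± 5.76 CPM, and Kctd12, an auxiliary subunit of the metabotropic GABA receptor, was 51.9 ± 34.2 against 6.18 ± 1.61 CPM. Yjefn3 was 65.1 ± 24.9 against 5.96 ± 0.599 CPM and Trim36, a ubiquitin ligase, was 21.9 ± 5.34 against 2.12 ± 0.423 CPM. Kctd12, Yjefn3 and Trim36, at 6.18 CPM or less in the other GABAergic nuclei, met the limit for testing in the Cck Cnr1 nuclei alone. Htr3a was 52.8 ± 30.3 against 7.35 ± 1.15 CPM (log2 fold change 2.69 ± 0.29 SE, adjusted p = 4.66e-11, edgeR). It met the limit for testing in the Cck Cnr1 nuclei alone (29.8% against 5.21%). All these genes were higher in 6 of 6 replicates, which the choice of named genes required.

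Lhx6, Nxph2, which encodes a secreted ligand of neurexins, and Crhbp, which encodes a binding protein of corticotropin-releasing hormone, had no UMI in the 121 nuclei. Against the floor of 3 UMIs over those nuclei, Nxph2 was at least 18.3-fold lower than in the other GABAergic nuclei, Lhx6 at least 14.6-fold lower and Crhbp at least 12.7-fold lower. Sox5os4, an opposite-strand transcript of the Sox5 locus, had 1 UMI and Moxd1, a monooxygenase, had 2, where the other GABAergic nuclei stood at 105 and 103 CPM. The ratios were 161 (95% counting interval 28.8 to 6349) and 79.8 (22.1 to 660). Kirrel, an adhesion molecule, had 2 UMIs, and its ratio was 23.0 (6.36 to 190.3). With at most 2 UMIs each over the 121 nuclei, all of these genes met the limit for testing in the other GABAergic nuclei alone. Reads that Sox5os4 or Tmem132cos share with overlapping genes were not resolved, so both are uncertain.

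Nxph1, the relative of Nxph2, was 210.2, 0 and 15.5 CPM in aplCoA and 138, 0 and 13.2 CPM in pplCoA, against 1874 to 2305 CPM in the other GABAergic nuclei (log2 fold change -4.67 ± 0.28 SE, adjusted p = 6.17e-20). Il1rapl2, a synaptic adhesion protein, was 11.6 ± 14.2 against 725 ± 119 CPM (SD, n = 6), with a log2 fold change of -5.29 ± 0.27 (SE). Slit2, an axon guidance ligand, was 1.65 ± 2.66 against 51.5 ± 12.3 CPM, and Tmem132cos was 4.60 ± 5.66 against 94.6 ± 28.9 CPM. All were lower in 6 of 6 replicates, which the choice of named genes required, with no overlap. Slit2 met the limit for testing in the other GABAergic nuclei alone.

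**Figure D3:**
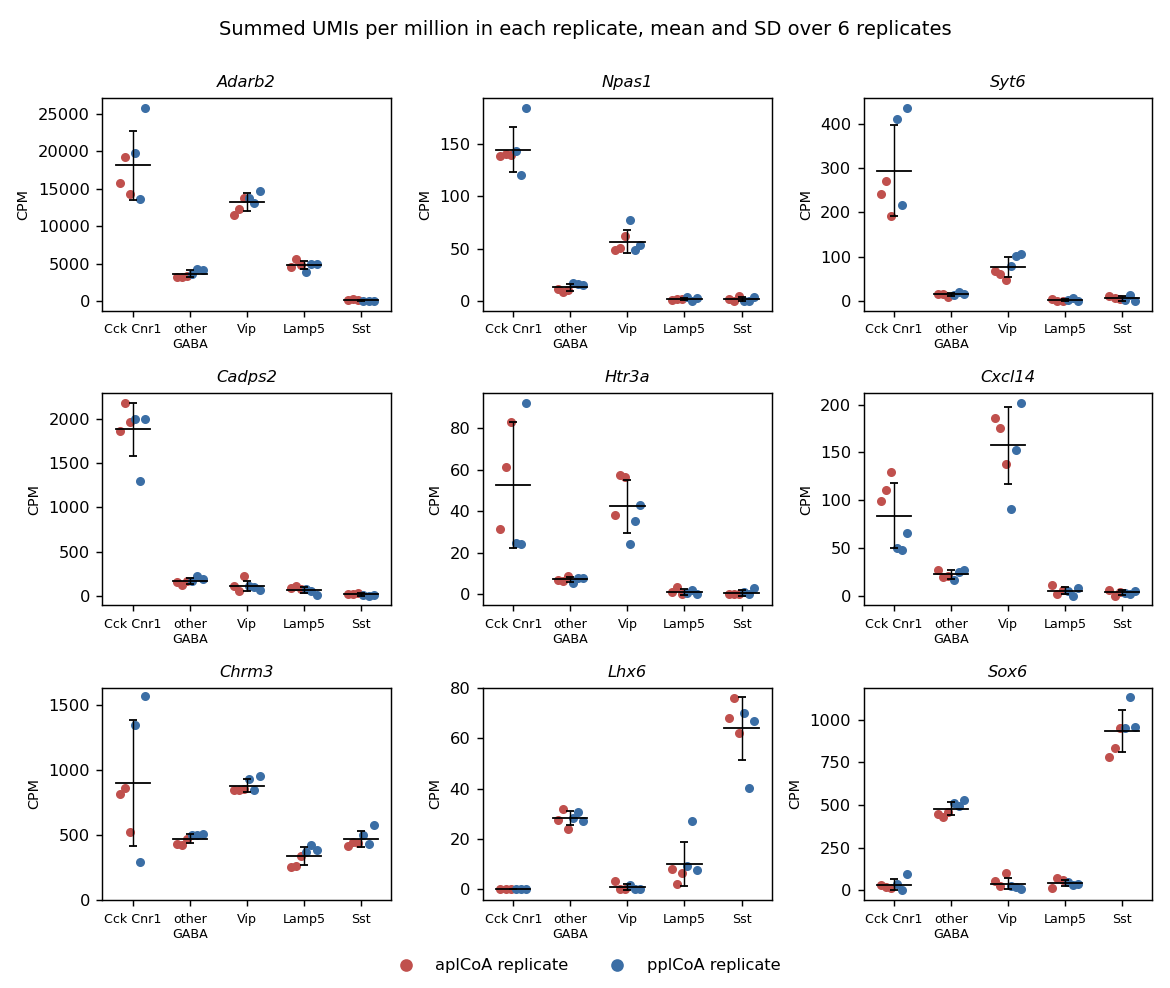
Summed UMIs as CPM (vertical axes, each scaled to its gene) in each replicate for 9 genes and 5 sets of GABAergic nuclei; bars give the mean and SD over 6 replicates. Npas1, Syt6 and Cadps2 are highest in every Cck Cnr1 replicate, Lhx6 is at 0 there, and Htr3a and Chrm3 overlap the Vip nuclei.

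Fewer genes were called against Vip nuclei than against Lamp5 or Sst nuclei. These sets had at least 2 UMIs of Vip or of Lamp5, or at least 3 of Sst, and no more than the limits of the rule for the others, and numbered 414, 554 and 449 nuclei. Against Vip nuclei, 409 of 9698 genes (4.22%) were higher and 550 (5.67%) lower. Against Lamp5 nuclei the counts were 685 (6.94%) and 753 (7.63%) of 9864, and against Sst nuclei 639 (6.31%) and 792 (7.82%) of 10127. The 4 comparisons share the Cck Cnr1 nuclei, and the sets differ in size and depth, whose part in the counts was not tested.

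Adarb2 was 13216 ± 1159 CPM (SD, n = 6) in Vip nuclei, 4809 ± 561 in Lamp5 nuclei and 123 CPM in Sst nuclei, beside 18100 ± 4537 CPM in Cck Cnr1 nuclei. The difference from Vip nuclei did not pass (log2 fold change 0.32 ± 0.12 SE, adjusted p = 0.0910, edgeR), and those from Lamp5 nuclei (1.88 ± 0.15) and Sst nuclei (7.42 ± 0.30) did. Npas1 was 56.7 ± 11.1 CPM in Vip nuclei and was higher in Cck Cnr1 nuclei by a log2 fold change of 1.25 ± 0.19 (SE, adjusted p = 2.52e-07). Syt6 was likewise higher than in Vip nuclei, by 1.90 ± 0.18. Cadps2 was higher than in Vip, Lamp5 and Sst nuclei by log2 fold changes of 3.99 ± 0.18, 4.75 ± 0.19 and 6.75 ± 0.24.

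Htr3a did not pass against Vip nuclei, where it was 42.5 ± 12.8 CPM (log2 fold change 0.10 ± 0.26 SE, adjusted p = 0.921), and was higher than in Lamp5 and Sst nuclei. Cxcl14 was lower than in Vip nuclei (83.9 ± 33.9 against 158 ± 40.1 CPM, log2 fold change -0.85 ± 0.19 SE, adjusted p = 6.32e-04), and so was Tac2 (56.9 ± 47.8 against 262 ± 88.1 CPM, log2 fold change -2.21 ± 0.22 SE, adjusted p = 6.86e-13). Calb1 went the other way, at 198 ± 51.1 against 10.6 ± 9.37 CPM (log2 fold change 3.68 ± 0.25 SE, adjusted p = 1.49e-19). The Vip limit of the rule can bear on genes that go with Vip, such as Tac2 and Prox1.

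Of 12 genes that accompany Cck in known interneurons, 10 were tested against the other GABAergic nuclei, of which 7 were higher and 2 lower, with a median log2 fold change of 1.25. Slc17a8, Egln3 and Htr3a reached the 10% of nuclei needed for testing in the Cck Cnr1 nuclei alone (11.6%, 11.6% and 29.8%, against 0.1995%, 1.10% and 5.21%), so the count and median lean upward by the filter. Slc17a8 was 27.7, 36.7 and 10.3 CPM in aplCoA and 62.5, 0 and 13.2 CPM in pplCoA, where the other GABAergic nuclei stood at 0.128 ± 0.161 CPM (SD, n = 6) with 8 UMIs in all (log2 fold change 6.95 ± 0.47 SE, adjusted p = 1.32e-17). Its 51 UMIs lay in 14 nuclei, and it was detected in 5 of 6 replicates. Egln3, an oxygen-sensing hydroxylase, was 16.0 ± 15.2 against 1.10 ± 0.466 CPM (log2 fold change 3.34 ± 0.55 SE). Cxcl14 was 83.9 ± 33.9 against 22.5 ± 4.46 CPM, with a log2 fold change of 2.03 ± 0.21 (SE). Chrm3, a muscarinic acetylcholine receptor, was 902 ± 483 against 473 ± 37.6 CPM (log2 fold change 0.87 ± 0.17 SE), and pplCoA replicate 2, at 289 CPM from 4 nuclei, lay below all the others. Tac2 (log2 fold change 0.95 ± 0.25 SE) was no longer called without aplCoA replicate 3, at 0.57. The neuropeptide Npy (-3.14 ± 0.43) and Ndnf (-1.33 ± 0.25), both known for neurogliaform cells, were lower. Against Vip nuclei, however, Ndnf was called higher.

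Transcription factors followed the eminences in part. Of 7 tested genes of caudal-eminence interneurons, Adarb2 (log2 fold change 2.27 ± 0.14 SE), Npas1 and Nr2f2, a nuclear receptor (0.87 ± 0.17), were higher, Npas1 having passed the limit for testing in the Cck Cnr1 nuclei alone, and Egfr, a growth factor receptor that also marks other cells, was lower (-2.41 ± 0.23). Against Vip nuclei 1 of the 7 was higher and 3 were lower, Prox1 among the latter. Egfr was called higher against Sst nuclei. Of 6 tested genes of medial-eminence interneurons none was higher and 4 were lower. Among them were Lhx6, Sox6 (31.4 ± 32.6 against 478 ± 38.7 CPM, log2 fold change -3.91 ± 0.22 SE) and Satb1 (-1.23 ± 0.25). Satb1 was not called without aplCoA replicate 1, at -0.83, and was called higher against Lamp5 nuclei. Of 8 tested genes of striatal-like and intercalated GABAergic neurons, 4 were lower and none higher, with Meis2 at -1.87 ± 0.31, Rarb at -1.80 ± 0.41, Bcl11b at -1.47 ± 0.21 and Pde10a at -0.90 ± 0.14. Bcl11b was called higher against Vip nuclei.

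Of 12 listed genes of the endocannabinoid system other than Cnr1, 10 were tested. Of these 2 were lower and none higher, near the background for rises, and the median log2 fold change was -0.24. Dagla, the enzyme that makes the endocannabinoid 2-arachidonoylglycerol, was 3.87 ± 3.51 CPM against 28.9 ± 4.23 CPM (SD, n = 6; log2 fold change -2.24 ± 0.40 SE, adjusted p = 1.69e-05), on 10 UMIs, and met the limit for testing in the other GABAergic nuclei alone (23.7% against 6.61%). Plcb1, a phospholipase upstream of it, was 474 ± 156 against 916 ± 44.1 CPM (log2 fold change -0.95 ± 0.15 SE). Both were also lower against Vip, Lamp5 and Sst nuclei, Dagla by log2 fold changes of -1.98, -2.21 and -2.21. Mgll (-0.22 ± 0.18) and Faah (-0.05 ± 0.24), which break endocannabinoids down, did not pass against the other GABAergic nuclei, while Mgll was lower than in Lamp5 nuclei (-1.27 ± 0.19, adjusted p = 8.96e-09, edgeR).

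Receptors for transmitters moved in both directions, with more members lower than higher among those for GABA and glutamate. Of 14 GABA receptor genes tested, 6 were lower and 1 higher, with a median of -0.62. Gabra5 and Gabrd met the limit for testing in the other GABAergic nuclei alone (22.9% and 10.9% against 4.96% and 1.65%), so the count and median lean downward by the filter. Gabrd, the delta subunit of extrasynaptic receptors, had 2 UMIs and a ratio of 11.7 (95% counting interval 3.23 to 96.9) between the other GABAergic nuclei and these. Gabra5 (-2.45 ± 0.41), Gabrg3 (-2.10 ± 0.18) and the metabotropic subunit Gabbr2 (-1.45 ± 0.16) were lower too. Gabra2, the alpha subunit known at perisomatic synapses, was higher (530 ± 74.7 against 332 ± 20.6 CPM, log2 fold change 0.65 ± 0.13 SE), and was not called when at least 10 Cnr1 UMIs were required, at 0.48.

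Of 22 glutamate receptor genes tested, 11 were lower and 2 higher, with a median of -0.63. The kainate subunit Grik3 (-3.22 ± 0.25 SE), the metabotropic receptors Grm8 (-2.39 ± 0.23) and Grm5 (-2.03 ± 0.17) and the NMDA subunit Grin3a (-2.0 ± 0.20) had the largest falls. Grid1, a delta receptor that binds synaptic organisers, rose (0.97 ± 0.14).

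Among 6 serotonin receptor genes tested, Htr3a and Htr2c were higher and Htr2a, Htr1f and Htr4 lower. Htr2c was 1244 ± 374 against 525 ± 77.8 CPM (log2 fold change 1.21 ± 0.15 SE, adjusted p = 5.14e-09) and lay above the other GABAergic nuclei in every replicate. Htr2a had UMIs in aplCoA replicate 1 alone, at 12.6 CPM, against 48.7 to 63.1 CPM (-3.19 ± 0.38). It met the limit for testing in the other GABAergic nuclei alone (30.8% against 4.13%), and Htr3a did so in the Cck Cnr1 nuclei alone (29.8% against 5.21%). Among 4 acetylcholine receptor genes tested, Chrm3 and the nicotinic subunit Chrna7 (248 ± 114 against 106 ± 14.6 CPM, 1.30 ± 0.17) were higher and none was lower. Of the 3 noradrenaline and dopamine receptor genes tested, Adra1a was lower (-0.76 ± 0.18), and was not called without aplCoA replicate 1, at -0.59.

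Of 15 neuropeptide genes outside the rule, 5 were detected often enough to be tested. Tac2 was higher, and Npy, Penk (-1.45 ± 0.42 SE) and Crhbp were lower. These 3 met the limit for testing in the other GABAergic nuclei alone, with UMIs in 5.79%, 9.09% and 0% of the Cck Cnr1 nuclei. Of 10 genes that process or package peptides, the convertase Pcsk2 was higher (993 ± 353 against 235 ± 18.5 CPM, log2 fold change 2.01 ± 0.16 SE), and Pcsk1 (-1.14 ± 0.37), Scg2 (-1.11 ± 0.24) and Pam (-0.89 ± 0.14) were lower. Without aplCoA replicate 1, aplCoA replicate 3 or pplCoA replicate 1, Pcsk1 was not called, at -1.46, -1.04 and -0.89. Of 7 neuropeptide receptor genes tested, the neuropeptide Y receptors Npy1r (67.7 ± 27.8 against 11.02 ± 2.74 CPM, 2.46 ± 0.25) and Npy5r (1.73 ± 0.36) were higher, both tested through the Cck Cnr1 nuclei alone. The opioid receptors Oprm1 (-1.63 ± 0.25) and Oprd1, which had 2 UMIs, were lower. Oprd1 met the limit for testing in the other GABAergic nuclei alone (10.2% against 0.826%). Against Vip nuclei, neither Npy1r (0.26 ± 0.23, adjusted p = 0.640) nor Npy5r passed.

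Channel and release genes went both ways, with list medians near that of all genes. Of 14 calcium channel genes, Cacna1a, the pore subunit of P/Q-type channels, was 136 ± 67.4 against 673 ± 36.7 CPM (log2 fold change -2.21 ± 0.18 SE, adjusted p = 3.09e-15). Cacna1b, that of N-type channels, was 439 ± 85.4 against 247 ± 12.3 CPM (0.85 ± 0.14, adjusted p = 2.66e-06). N-type channels are known to serve release at cholecystokinin basket cell terminals and P/Q-type channels at those of parvalbumin basket cells. In all, 2 calcium channel genes were higher and 4 lower, with Cacna2d1 at -1.98 ± 0.17, Cacna1e at -1.92 ± 0.18 and Cacna2d2 at -1.63 ± 0.24, and the median was 0.03. Cacna2d1 was called higher against Sst nuclei.

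Of 27 potassium and HCN channel genes tested, 5 were higher and 6 lower, with a median of -0.12. Kcnq5, a subunit of M-type channels, was 3486 ± 848 against 866 ± 61.5 CPM (log2 fold change 1.97 ± 0.14 SE), and Kcnh1 was higher by 1.06 ± 0.15. Kcnh5 was lower (-2.01 ± 0.40), and met the limit for testing in the other GABAergic nuclei alone (14% against 8.26%). Of 18 presynaptic genes tested, Syt6 and the complexin Cplx2 (1.38 ± 0.16) were higher and 4 were lower, led by Unc13c (-3.07 ± 0.33), Syt7 (-1.67 ± 0.25) and Rab3b (-1.33 ± 0.23). Syt6 met the limit for testing in the Cck Cnr1 nuclei alone, and Unc13c in the other GABAergic nuclei alone (15.4% against 6.61%). Of 7 calcium-binding protein genes tested, Necab1 (836 ± 132 against 198 ± 23.2 CPM, 2.06 ± 0.13) and Necab2 (68.9 ± 16.7 against 17.9 ± 2.45 CPM, 1.85 ± 0.22) were higher. Calb1 had an adjusted p of 0.00329 but a change under 1.5-fold (0.58 ± 0.15).

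Of 24 synaptic adhesion genes tested, 4 were higher and 11 lower, with a median of -0.41. Nrxn3, a presynaptic neurexin, was 20827 ± 3374 against 8470 ± 680 CPM (log2 fold change 1.27 ± 0.13 SE). Il1rapl2, Il1rapl1 (-1.88 ± 0.16), the cadherin Cdh8 (-1.69 ± 0.20) and the receptor phosphatase Ptprd (-1.10 ± 0.15) were lower. Of 11 growth factor and neurotrophin genes tested, Vwc2l was higher (0.75 ± 0.19) and Fgf13 (-1.43 ± 0.16) and the neurotrophin receptor Ntrk2 (-0.89 ± 0.14) lower. Vwc2l was not called without aplCoA replicate 3, at 0.48, and was called lower against Vip nuclei. Fgf13 was called higher against Sst nuclei. The 6 genes of GABA synthesis and transport outside the rule had none called, with the transaminase Abat at 0.03 ± 0.16. None of the 4 activity-linked genes tested was called, with Homer1 at -0.23 ± 0.18 and Nr4a1 at -0.58 ± 0.29. Against Vip nuclei Nr4a1 and Homer1 were called lower, and against Lamp5 nuclei Nr4a1 and Nr4a3 were lower and Egr1 higher. By the study's methods, the mice were housed alone in sensory deprivation before sacrifice, to limit expression of immediate early genes.

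**Figure D4:**
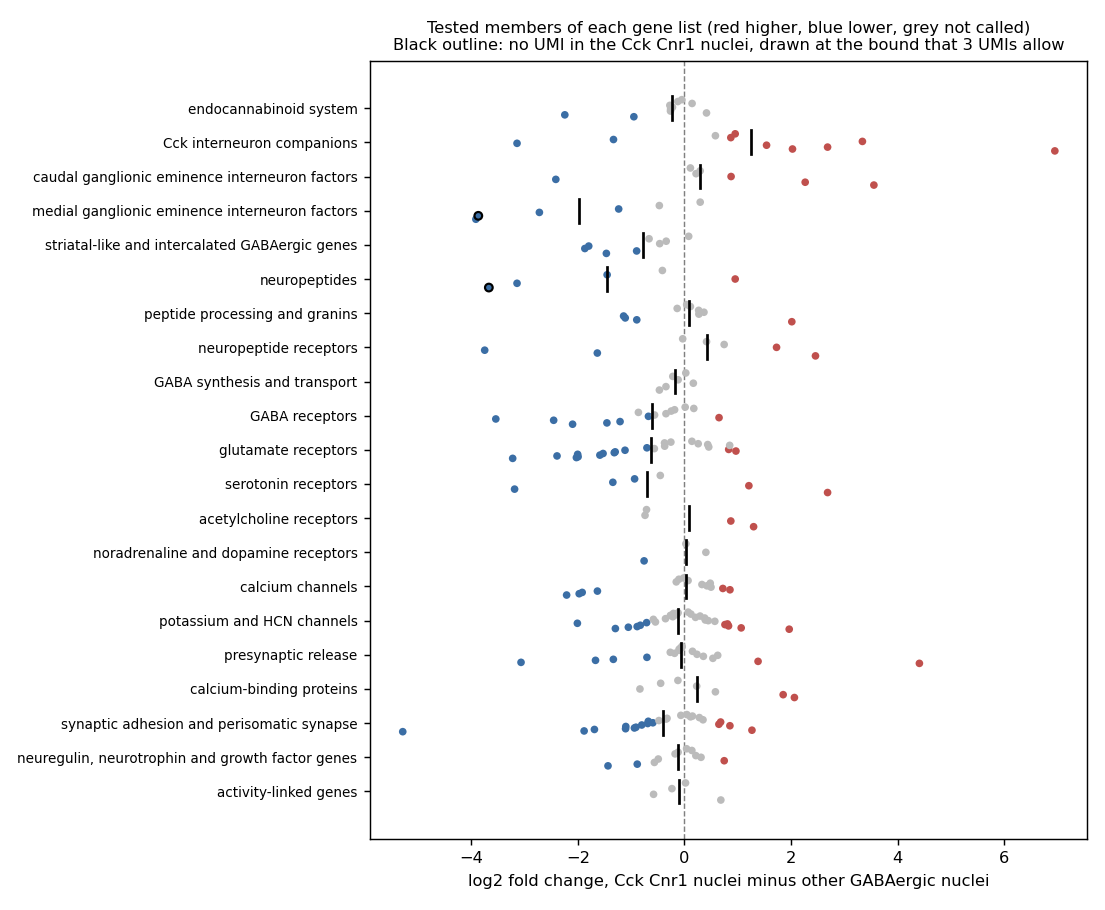
log2 fold change (horizontal axis) of Cck Cnr1 nuclei against other GABAergic nuclei for each tested gene of 21 lists (rows); red points were called higher, blue lower and grey neither, and black bars are list medians. Genes of the Cck interneuron list lie mostly to the right (median 1.25) and those of medial-eminence interneurons to the left (median -1.98); points outlined in black had no UMI in the Cck Cnr1 nuclei and are drawn at the bound that 3 UMIs allow.

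Most markers of other cell types were too seldom detected to be tested. Of 8 glutamatergic markers 2 were tested, of 5 astrocyte markers 1, of 5 mature oligodendrocyte markers 1, of 5 microglial markers 3, and none of the precursor or vascular markers, and among those tested none was called higher and 1 was called lower. All 5 microglial markers had UMIs, and their summed level was 24.1 to 158 CPM across replicates, against 140 to 214 CPM in the other GABAergic nuclei. All 5 astrocyte markers had UMIs at 0 to 224 CPM, against 26.9 to 77.4 CPM. Of 8 glutamatergic markers 6 had UMIs, with Neurod1 and Neurod6 at 0, and the sum was 25.0 to 98.2 CPM against 44.6 to 120.2 CPM. All 5 mature oligodendrocyte markers had UMIs at 0 to 27.7 CPM (9.94 to 50.03 CPM in the others), 3 of 4 precursor markers at 0 to 3.78 CPM (6.85 to 35.2 CPM) with Pdgfra at 0, and 4 of 6 vascular and meningeal markers at 0 to 25.9 CPM (1.88 to 13.4 CPM) with Cldn5 and Col1a2 at 0. A doublet caller marked 8 of the 121 nuclei, or 6.61%, and 9.15% of the other GABAergic nuclei. Without the 5 clusters in which such a list was at least 10 times its median over clusters, which held 12 Cck Cnr1 nuclei, 413 genes were higher and 690 lower.

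Between the domains, 25 of 10399 genes tested in the Cck Cnr1 nuclei were called (0.240%; edgeR, adjusted p under 0.05), 13 higher and 12 lower in aplCoA. DESeq2 called 0, with 158 genes at an unadjusted p under 0.05, where edgeR had 710. The count was 13, 5 and 8 when aplCoA replicates 1, 2 and 3 were left out in turn, and 4, 42 and 17 when pplCoA replicates 1, 2 and 3 were. The pplCoA values rest on 22, 4 and 6 nuclei, and fewer nuclei of a subtype cannot be told apart from less RNA of a gene in each. The median log2 fold change of all genes was 0.09.

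Tubb2a, a beta-tubulin, was 167, 178 and 150.0 CPM in aplCoA and 28.1, 96.5 and 52.8 CPM in pplCoA, with no overlap (log2 fold change 2.03 ± 0.40 SE, adjusted p = 0.00190, edgeR), and remained called in 5 of 6 fits that left out 1 replicate. Fxyd6, a regulator of the sodium pump, was 138, 202 and 186 CPM in aplCoA and 34.4, 0 and 119 CPM in pplCoA (1.84 ± 0.39, adjusted p = 0.00585), and remained called in 4 of 6. The other GABAergic nuclei had 102 ± 16.3 and 55.2 ± 14.3 CPM of Tubb2a and 44.4 ± 4.53 and 39.8 ± 7.29 CPM of Fxyd6 (SD, n = 3) in aplCoA and pplCoA, and neither change differed from that in the Cck Cnr1 nuclei by the test of the difference (adjusted p = 0.983 and 0.135). The median mitochondrial percentage of the Cck Cnr1 nuclei was 0.0326, 0.0189 and 0.0270% in aplCoA and 0.0109, 0.00408 and 0.0179% in pplCoA, higher in every aplCoA replicate. The median ribosomal percentage was 0.333, 0.352 and 0.398% in aplCoA and 0.223, 0.302 and 0.264% in pplCoA, again without overlap. Both measures also separated the domains in the other GABAergic nuclei, and their part in these results was not tested.

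Fbn2, a fibrillin of the extracellular matrix, had 46 UMIs in 16 aplCoA nuclei and 1 in pplCoA, and met the limit for testing in aplCoA alone, with a ratio of 17.5 (95% counting interval 2.98 to 705), with levels of 29.0, 36.7 and 87.9 CPM against 0, 24.1 and 0 CPM (adjusted p = 0.0170), and remained called in 2 of 6 such fits. Gm11418, a predicted gene, was 94.4, 85.7 and 134 CPM in aplCoA and 37.5, 24.1 and 0 CPM in pplCoA (1.85 ± 0.45 SE, adjusted p = 0.0210), and was called in 0 of 6. Gulp1, an engulfment adaptor, was 64.2, 165 and 181 CPM in aplCoA and 18.8, 96.5 and 39.6 CPM in pplCoA, with overlap (1.95 ± 0.45, adjusted p = 0.0127), and remained called in 3 of 6. It is a leading gene of cluster 13, which held 20.0%, 33.3% and 58.8% of aplCoA nuclei and 4.55%, 25.0% and 16.7% of pplCoA nuclei, and the part of this in the Gulp1 result was not tested.

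Of the genes lower in aplCoA, Gm2115 was 3.78, 12.2 and 5.17 CPM in aplCoA and 87.5, 24.1 and 52.8 CPM in pplCoA (log2 fold change -3.59 ± 0.63 SE, adjusted p = 1.59e-04), and 14 of its 33 pplCoA UMIs lay in 1 nucleus. It met the limit for testing in pplCoA alone (37.5% of nuclei against 6.74%), as did Pla2g7 (15.6% against 3.37%). 9530026P05Rik was 13.9, 18.4 and 10.3 CPM in aplCoA and 71.9, 96.5 and 66.0 CPM in pplCoA (-2.33 ± 0.53, adjusted p = 0.0127). Neither overlapped between domains, and they remained called in 4 and 2 of 6 fits without 1 replicate. Gm20713, in which pplCoA replicate 3 stood at 343 CPM, Pla2g7, a phospholipase, and Slc4a4, a bicarbonate transporter of astrocytes and some neurons, all overlapped between domains, with log2 fold changes of -2.20 ± 0.41, -2.96 ± 0.72 and -1.86 ± 0.42, and remained called in 4, 1 and 2 of 6 such fits.

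Astrocyte markers moved with Slc4a4 over the pplCoA replicates, and with Gm20713 in part. Their summed level was 31.5, 36.7 and 20.7 CPM in the Cck Cnr1 nuclei of aplCoA and 65.7, 0 and 224 CPM in those of pplCoA, where the last value came from 17 UMIs in 3 of 6 nuclei. Slc4a4 was 23.9, 49.0 and 25.9 CPM in aplCoA and 100.0, 0 and 198 CPM in pplCoA, with the same replicate at 0 and the same one highest. Gm20713 is among the leading genes of cluster 15, in which astrocyte markers stood at 40.2 times their median over clusters. That cluster held 2 of the 6 nuclei of pplCoA replicate 3. In pplCoA replicate 2, where astrocyte markers had no UMI, Gm20713 had 2 UMIs. Slc1a2, also among the leading genes of cluster 15, was called lower in aplCoA too. It stood at 201 ± 54.1 against 463 ± 447 CPM (SD, n = 3), and the domains overlapped. Whether RNA of astrocytes entered any of these results was not tested. Without the clusters led by genes of other cell types the Slc4a4 change was 0.18 on the log2 scale and that of Gm20713 -0.82, neither called, and 15 genes were called in all. In that setting 9530026P05Rik (-1.47), Fbn2 (3.81) and Gm11418 (1.78) also lost their call, while Tubb2a, Fxyd6, Gulp1 and Gm2115 kept it. Over the 21 lists of neuronal genes, 2 were called between domains, of which Fgf13 was lower in aplCoA (-1.18 ± 0.27 SE).

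For 6 of 9819 genes (0.0611%) the change between domains differed between Cck Cnr1 nuclei and the other GABAergic nuclei (edgeR, interaction term, adjusted p under 0.05), while DESeq2 called 0, with 195 genes at an unadjusted p under 0.05 against 437 in edgeR. Sema3c, an axon guidance ligand, was 61.7, 104 and 72.4 CPM in aplCoA and 200.1, 241 and 172 CPM in pplCoA, where the other GABAergic nuclei averaged 24.8 and 18.9 CPM (difference of log2 changes -1.63 ± 0.36 SE, adjusted p = 0.0297). Pde1a, a phosphodiesterase, was 374, 398 and 631 CPM in aplCoA and 150.1, 265 and 264 CPM in pplCoA, where the others averaged 283 and 303 CPM (1.34 ± 0.31, adjusted p = 0.0486). Each was called in 3 of 6 fits that left out 1 replicate. Some of these levels rest largely on 1 nucleus. For Sema3c, 1 nucleus held 9 of 10 UMIs in pplCoA replicate 2 and 10 of 17 in aplCoA replicate 2. For Pde1a, 1 nucleus held 9 of 11 UMIs in pplCoA replicate 2 and 13 of 20 in pplCoA replicate 3. Il1rapl2 was 31.5, 12.2 and 25.9 CPM in aplCoA and had no UMI in the 32 pplCoA nuclei. No gene was called once pplCoA replicate 1 was left out. The counts were 16 with aplCoA replicate 1 left out, 27 with pplCoA replicate 2 and 12 with pplCoA replicate 3.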

How the data were processed

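Single nuclei of aplCoA and pplCoA were sequenced in 7 libraries (10x). The authors deposited raw count matrices of all barcodes, not normalized, made with Cell Ranger 5.0.0 on mm10, intronic reads included, per the labels and the study's methods; the file headers name version 4 of that tool. Nuclei were barcodes with at least 1000 genes and at most 30000 UMIs, and sets of nuclei were taken by UMI thresholds. The members and the 28 gene lists were chosen with earlier results of these data known. Empty-droplet calling was not run, and doublets were marked by score but kept. Neighbouring or overlapping genes that share reads were not resolved.

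Counts were summed over each set in each replicate. Genes with a UMI in 10% or more of the nuclei of a set compared were kept, scaled by TMM and tested by edgeR 4.0.16 (quasi-likelihood, R 4.3.3), with a replicate term between sets and none between domains; the SE is the log2 fold change over the square root of F. Genes of the rule were fitted but not counted. Between sets a gene was called with an adjusted p under 0.05 and a 1.5-fold change; between domains by the p alone. p-values take these pooled replicates as the unit, and edgeR shares information on their spread across genes. For single genes between domains, the edgeR p-values follow mainly this shared spread, and do not measure each gene's own spread between replicates. Gm20713 had an unadjusted p of 1.2e-07 (edgeR), although it stood at 155 ± 163 CPM (SD) in pplCoA and overlapped aplCoA. Shares were compared by exact permutation; intervals and floors cover counting error only. Clusters were made with scikit-learn 1.9.0 and leidenalg 0.10.2 (2000 variable genes, 30 components, 15 neighbours, Leiden, resolution 1.0), and doublets were scored with scanpy 1.11.5. The fitting was tested on simulated data.

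Named genes were the 10 largest rises and the 10 largest falls among genes called, changed alike in 6 of 6 replicates and at 20 CPM or more in the higher set, without predicted genes; between domains, the 5 largest in each direction at 20 CPM or more; of each list, up to 4 called members, or the 2 most expressed where fewer than 2 were called. Calb1, Prox1, Sncg, Npy1r against Vip nuclei, Mgll, Faah, Cacna1b and the 6 genes of the interaction term were named after their values were seen. Alternatives were other thresholds, DESeq2 1.42.0, limma 3.58.1 for shares, other filters, scalings and tests, thinned nuclei, doublets removed, replicates left out, 1 library of aplCoA replicate 1 alone, other clusterings and, chosen after seeing the data, leaving out clusters led by genes of other cell types. Some results for single members of the lists are not reported here.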

Additional observations from a re-analysis of the deposited data

Results flagged for a closer look

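Among the 20 named genes of the comparison with the other GABAergic nuclei, 1 of the 6 replicates of the Cck Cnr1 nuclei lay far from the others in 5. In 2 of them, Sox5os4 and Moxd1, 1 or 2 UMIs among zeros gave this by construction; for the rest chance gives about 1 in 20. Npas1 stood at 185 CPM in pplCoA replicate 3, above 121 to 144 CPM in the others, and Kctd12 at 119 CPM in the same replicate of 6 nuclei. Cadps2 was lowest in pplCoA replicate 2, at 1303 CPM from 4 nuclei, and Sox5os4 had its 1 UMI there, which made 24.1 CPM. Moxd1 was 5.17 CPM in aplCoA replicate 3 on 1 UMI.

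The change between domains, aplCoA minus pplCoA, differed between the Cck Cnr1 nuclei and the other GABAergic nuclei for 6 genes (edgeR interaction term). The difference of log2 changes was -4.11 for Gm2115, -2.76 for 9530026P05Rik, -2.02 for Slc4a4, -1.63 for Sema3c and 1.34 for Pde1a. For Il1rapl2 the fitted value was 9.80, which is no measure of size, since the pplCoA nuclei had no UMI. DESeq2 called none of them.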

How the results depend on the processing

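The number of Cck Cnr1 nuclei was 68 with at least 10 Cnr1 UMIs and 55 with at least 3 Cck UMIs. The difference in their share kept its direction and lay between 1.24 and 2.63 percentage points under the alternatives on that scale, 1.29 to 2.32 with 1 replicate left out, except on nuclei thinned to 2000 UMIs, where it was -0.496 from 7 nuclei. Genes called between domains numbered 4 to 42 with 1 replicate left out, 0 by DESeq2, 0 with filterByExpr (which left 3078 genes), 15 without a filter, 84 with at least 10 Cnr1 UMIs, 6 at an adjusted p under 0.01 with a 1.5-fold change, and 15 without the clusters led by genes of other cell types; of these 84, 22 were among the 25. In the last setting Slc4a4 turned to 0.18, and its difference between sets to 0.071. The interaction gave 0 to 27 genes with 1 replicate left out, 0 by DESeq2 and 14 without those clusters.

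Against the other GABAergic nuclei, the count of 1101 genes lay between 954 and 1077 with 1 replicate left out, was 461 on thinned nuclei and 667 at 2-fold, and was within 1.5 times otherwise. Without a filter on low counts 433 genes were higher and 974 lower, a larger share lower. Thinning gave 408 genes against Vip, 634 against Lamp5 and 619 against Sst nuclei; with 1 replicate left out the ranges were 792 to 955, 1183 to 1411 and 1245 to 1423. Of 2073 values for 117 named and listed genes, 1967 kept their call, 106 lost it and 0 reversed. The cause of these changes was not tested, beyond the fewer UMIs, genes or nuclei that a setting leaves.

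Replicates with the same number showed little shared deviation between domains (correlations 0.13, -0.05 and -0.03 over 3494 genes). Some of these sums rest on as few as 4 nuclei, so the check cannot exclude that replicates sharing a number also share a batch. With that number as a replicate block, 6 genes were called between domains. The share differed by 0.727 on the log odds scale (limma, unadjusted p = 0.0190 with the block and 0.0622 without). Adjusted over 6 sets, which include the other GABAergic nuclei as the complement of this share, the limma p-values were 0.0570 and 0.187. Between sets, where both sets come from the same replicate, the fit without the replicate block called 1090 genes against the other GABAergic nuclei, 943 against Vip, 1383 against Lamp5 and 1414 against Sst nuclei. The pplCoA values rest on 22, 4 and 6 nuclei, which limits their precision.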
